A study of Mus musculus with 8 samples.

Results

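Cells make cholesterol from acetyl-CoA through the mevalonate pathway, and 7 of the 8 genes described here encode enzymes along that route. Hmgcs1, HMG-CoA synthase, acts near the start, and Idi1 interconverts the isoprenoid building blocks. Fdft1, squalene synthase, makes the first intermediate committed to sterols. Sqle, squalene epoxidase, then adds oxygen to squalene, and Lss closes it into the ring of lanosterol. Cyp51 and Dhcr7 carry out later steps, Dhcr7 as the reductase of 7-dehydrocholesterol. The remaining gene, Insig1, encodes a membrane protein that holds the SREBP transcription factors in the endoplasmic reticulum when sterols are plentiful. SREBPs in turn drive these enzymes and Insig1 itself, so that the genes are commonly read as 1 sterol-responsive set. In epidermis, cholesterol is also a structural lipid of the water barrier. None of the 8 encodes a receptor for lipoprotein uptake, so the genes are called cholesterol synthesis genes here.

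The 8 genes were chosen by symbol from the 23432 listed in the count files, and all 8 passed the filter on low counts in every comparison. The data were poly(A) RNA sequencing of mouse skin epithelium from 8 libraries in 4 groups of 2. At the embryonic stage E16.5, epithelial cells marked by the K14-H2BGFP reporter were sorted from control skin and from MOF fl/fl K14Cre skin (MOF cKO), which loses the histone H4 acetyltransferase MOF. At postnatal day 0.5 (P0.5), total epidermis was taken from control pups and from Kansl1 fl/fl K14Cre pups (Kansl1 cKO), which lose a subunit of a complex that contains MOF. Cre was driven by the Krt14 promoter of basal keratinocytes in both, controls were littermates, and the mice were of mixed C57Bl/6J and CD-1 background and of both sexes. The labels number the replicates of a group but do not say that each was a separate animal, so the p-values measure the spread between these libraries.

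Reads on genes numbered from 22484018 to 27561688 per library at E16.5 and from 9108709 to 19774643 at P0.5. The 8 genes were well covered, with from 199 to 7977 reads each in a library. Levels are given as CPM, reads on a gene scaled to library size, with 1 set of TMM factors for all libraries, and fold changes come from the fit of each comparison. MOF itself is listed as Kat8 and differed by -0.14 ± 0.18 on the log2 scale (SE, adjusted p = 0.554, edgeR) in MOF cKO, and Kansl1 differed by -0.52 ± 0.17 (adjusted p = 0.242) in Kansl1 cKO. These counts cover whole genes and do not resolve the deleted exons, so they do not check the genotypes. Xist, the RNA of the inactive X chromosome, was at 1394 CPM in E16.5 control replicate 1, whereas the other E16.5 libraries had 9.21 to 11.1 CPM, and at 1.32 CPM in P0.5 control replicate 2 against 408 to 462 CPM in the other P0.5 libraries.

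The promoters of the set were read first, since the genes are known for shared control. RefSeq promoters of GRCm38.p6, from 250 bases before to 50 after a start, were matched for 6 of the 8 genes, in 8 windows because Dhcr7 has several starts. Sqle and Fdft1 had no promoter in the sequences used. On either strand, the sterol regulatory element TCACNCCAC was in the window of Hmgcs1 and in no other of the 8 windows, and in 1.24% of 32851 promoters of all genes. The CCAAT box was in 6 of the 8 windows and at least 1 window of all 6 genes, against 37.4% of all promoters. The GC box GGGCGG was in 7 windows, again in all 6 genes, against 35.7%. The E-box CACGTG was in a window of Dhcr7 and of Insig1, against 7.15%. These letters are a description of the windows and not binding sites. Other forms of these elements were not searched, so a window without a match may still hold one. The windows of Hmgcs1, Insig1 and Lss are printed because these genes stand at the start of the pathway, in its control and at ring closure, and each holds a CCAAT box. Only bases before both the RefSeq and the GENCODE start are shown, 5′ to 3′ on the gene's strand, which is + for all of them. Capitals mark the sterol regulatory element and CCAAT boxes, here on the opposite strand and so read as ATTGG. Hmgcs1 is from chr13:119690101-119690350, Insig1 from chr5:28071162-28071362 and Lss from chr10:76531355-76531587.
Hmgcs1: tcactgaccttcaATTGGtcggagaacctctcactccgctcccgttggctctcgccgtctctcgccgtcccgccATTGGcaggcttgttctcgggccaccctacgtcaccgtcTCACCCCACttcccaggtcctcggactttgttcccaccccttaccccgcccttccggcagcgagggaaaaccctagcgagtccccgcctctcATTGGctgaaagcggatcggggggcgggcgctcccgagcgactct
Insig1: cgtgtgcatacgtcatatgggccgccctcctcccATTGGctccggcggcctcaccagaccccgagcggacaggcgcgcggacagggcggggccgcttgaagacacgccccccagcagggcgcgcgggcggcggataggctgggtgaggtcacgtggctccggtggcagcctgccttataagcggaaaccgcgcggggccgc
Lss: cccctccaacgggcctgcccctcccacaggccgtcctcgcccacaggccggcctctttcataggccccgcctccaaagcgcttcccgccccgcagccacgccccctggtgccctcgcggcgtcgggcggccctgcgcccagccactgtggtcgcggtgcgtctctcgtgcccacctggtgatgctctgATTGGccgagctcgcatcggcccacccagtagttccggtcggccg

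At E16.5 in control cells, the level per kilobase of merged exon was highest for Hmgcs1, at 69.3 ± 0.996 CPM per kb (SD, n = 2), and Idi1 followed at 40.3 ± 1.18. Sqle at 22.1 ± 3.61, Cyp51 at 19.4 ± 1.20, Insig1 at 18.0 ± 1.66 and Fdft1 at 16.3 ± 3.46 CPM per kb came next, with differences between neighbours no larger than the spread between replicates. Dhcr7, at 11.3 ± 1.89, and Lss, at 6.77 ± 1.34 CPM per kb, were lowest. Hmgcs1 was first and Lss last or next to last in each of the 4 groups. In MOF cKO, Sqle stood in second place at 39.3 ± 6.30 CPM per kb, beside Idi1 at 36.1 ± 6.34. Insig1 was there at 12.9 ± 2.78 CPM per kb, beside Dhcr7 at 13.0 ± 2.88 and above only Lss. At P0.5 Insig1 was also at the lower end of the order, at 8.94 ± 2.18 in controls and 6.91 ± 0.76 CPM per kb in Kansl1 cKO. The lowest of the enzymes was Lss, at 7.05 ± 1.08 and 7.50 ± 0.87 CPM per kb.

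**Figure D1:**
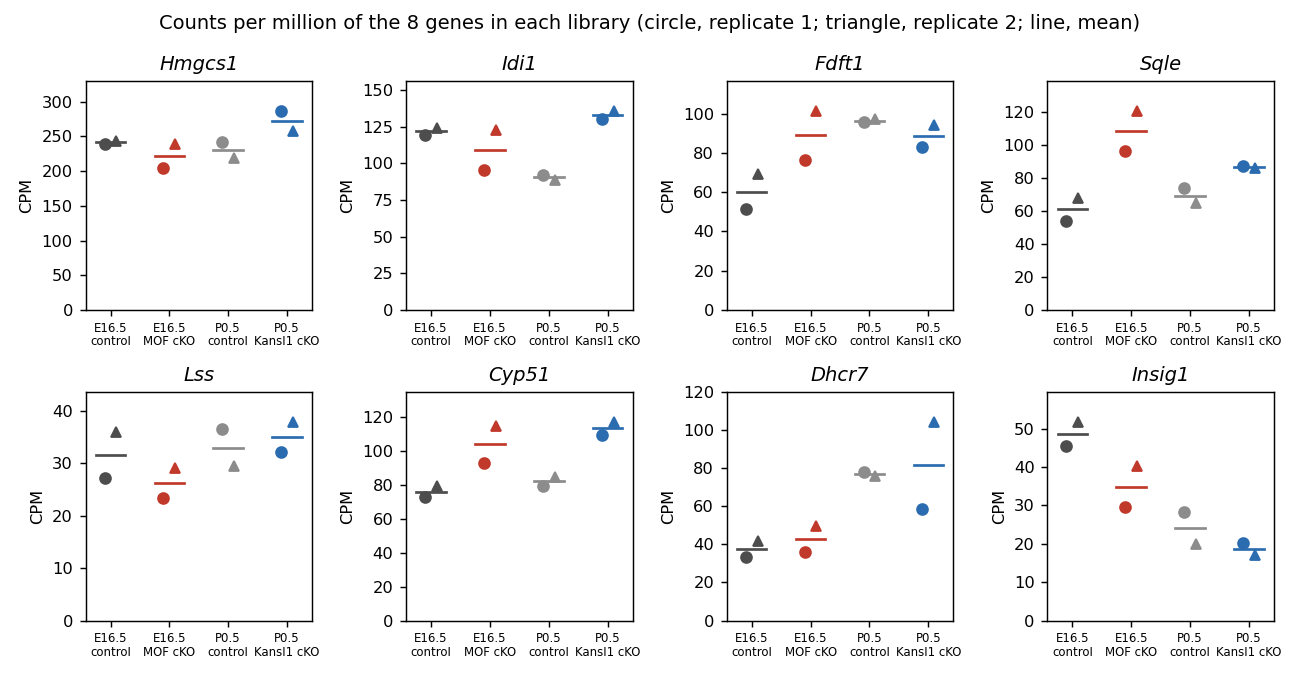
CPM (vertical axes, from 0) of the 8 genes in the 4 groups (horizontal axes), with a circle for replicate 1, a triangle for replicate 2 and a line for the group mean. Sqle is higher in both MOF cKO libraries than in all other libraries, and in the E16.5 groups replicate 2 is above replicate 1 for all 8 genes.

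The first comparison asked how the loss of MOF altered these genes in E16.5 epithelial cells. Of the 8, Sqle was called and the other 7 were not, where a call needs a change of more than 1.5-fold with an adjusted p no higher than 0.01 in edgeR's quasi-likelihood test. Sqle read 54.0 and 68.1 CPM in the control libraries and 96.1 and 121 CPM in the MOF cKO libraries. Both MOF cKO libraries were above both controls, and Sqle rose 1.775-fold, with a log2 fold change of 0.83 ± 0.16 (SE, 95% CI 0.45 to 1.20, adjusted p = 0.00678). Over all 13956 genes tested, 10% were called higher and 9.59% lower, so 1 call in 8 is close to the share among all genes. Those calls were 1395 higher and 1338 lower, and 769 higher and 2743 lower where libraries were scaled by size alone. The median log2 fold change of the 8 genes was 0.04, beside -0.02 over all genes tested. The call of Sqle sat near the threshold. It was lost without E16.5 control replicate 1 (log2 fold change 0.67, adjusted p = 0.0105) and without MOF cKO replicate 2 (0.65, adjusted p = 0.0158), and also under scaling by upper quartiles (adjusted p = 0.0109) or library size (0.0361).

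The step before and a later step of the pathway lay in the same direction without a call. Fdft1 was at 51.2 and 69.3 CPM in controls and 76.6 and 102 CPM in MOF cKO. Its groups did not overlap, and its log2 fold change was 0.56 ± 0.19 (adjusted p = 0.049), a fold of 1.478. Without E16.5 control replicate 2 it was called as well, at 0.79 with an adjusted p of 0.00399, and without MOF cKO replicate 2 it was at 0.34 with an adjusted p of 0.184. Cyp51 was at 72.9 and 79.5 CPM in controls and 92.9 and 115 CPM in MOF cKO, again without overlap. Its log2 fold change was 0.45 ± 0.14 (adjusted p = 0.0348). Among all genes tested, 35.0% were higher in both MOF cKO libraries than in both controls and 37.7% were lower in both, so that 3 of 8 higher without overlap is near the background.

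The other 4 enzymes had intervals that included 0. Hmgcs1 was at 239 and 244 CPM in controls and 204 and 239 CPM in MOF cKO, with a log2 fold change of -0.12 ± 0.11 (95% CI -0.39 to 0.14, adjusted p = 0.419). The higher MOF cKO library all but reached the lower control. Idi1 was at 119 and 124 CPM in controls and 95.8 and 123 CPM in MOF cKO, and the groups overlapped (-0.16 ± 0.14, 95% CI -0.48 to 0.17, adjusted p = 0.399). Lss was at 27.2 and 36.0 CPM in controls and 23.3 and 29.0 CPM in MOF cKO, also with overlap (-0.27 ± 0.18, 95% CI -0.71 to 0.16, adjusted p = 0.28). Dhcr7 was at 33.1 and 42.0 CPM in controls and 36.2 and 49.7 CPM in MOF cKO, and the groups overlapped (log2 fold change 0.20 ± 0.19, 95% CI -0.25 to 0.64, adjusted p = 0.441). The intervals bound how far these enzymes could differ and do not show equal levels.

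Insig1 lay opposite to Sqle. It was at 45.5 and 51.8 CPM in controls and 29.6 and 40.2 CPM in MOF cKO. Both MOF cKO libraries were below both controls, but the log2 fold change of -0.48 ± 0.17 (95% CI -0.88 to -0.08) had an adjusted p of 0.0596. With Hmgcs1, Insig1 made 2 of 8 genes lower without overlap, beside 37.7% of all genes tested.

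**Figure D2:**
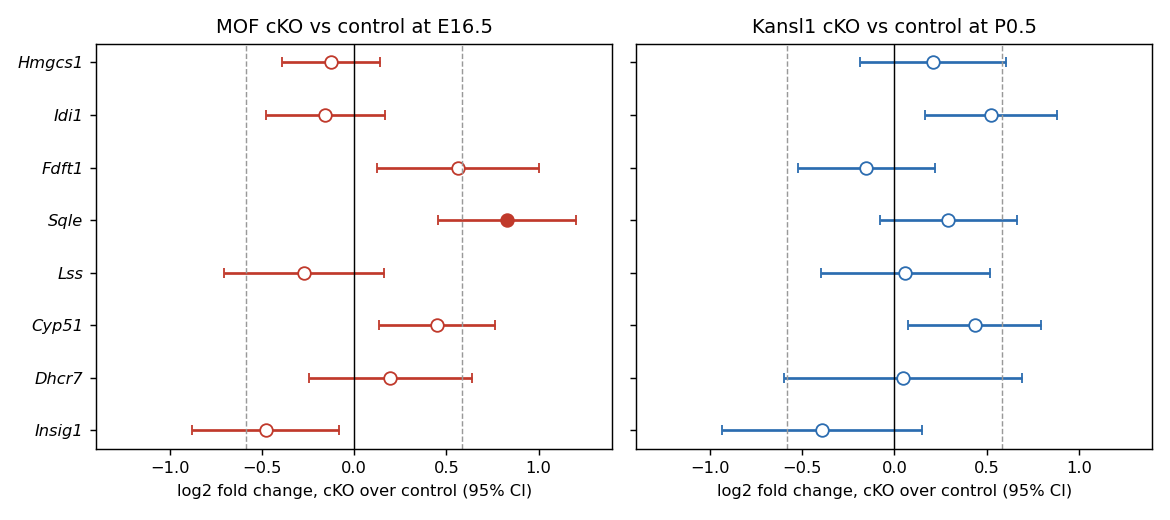
Log2 fold change of each gene (horizontal axis) in MOF cKO against control at E16.5 (left) and Kansl1 cKO against control at P0.5 (right), with 95% confidence intervals from edgeR, filled where called, and dashed lines at the 1.5-fold threshold. Sqle in MOF cKO, at 0.83, is the filled point, and Insig1 lies below 0 in both panels, at -0.48 and -0.39.

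A ratio of reads on 2 genes within a library does not depend on scaling. It was taken for Sqle against an early enzyme and against the next enzyme after the Sqle values were seen. For each read on Hmgcs1 there were 0.226 and 0.279 reads on Sqle in the E16.5 controls and 0.470 and 0.505 in MOF cKO. The ratio was 1.939 times as high in MOF cKO. Against Lss, the enzyme that acts next, Sqle had 1.99 and 1.89 reads per read in controls and 4.12 and 4.16 in MOF cKO, a ratio 2.137 times as high. Hmgcs1 and Lss were themselves lower on average in MOF cKO, at folds of 0.918 and 0.828. Both ratios therefore exceed the fold of Sqle itself, 1.775. Ratios of Sqle to Fdft1 and Cyp51, which lay higher in MOF cKO, were not taken. At P0.5, Sqle had 0.305 and 0.295 reads for each on Hmgcs1 in controls and 0.303 and 0.333 in Kansl1 cKO, with overlap. Against Lss it had 2.02 and 2.20 in P0.5 controls and 2.71 and 2.27 in Kansl1 cKO, without overlap, a ratio 1.176 times as high. The exact permutation test over 4 libraries cannot go below p = 0.333 (two-sided), and both ratios at E16.5 and that against Lss at P0.5 gave that value. Summed over the 8 genes, the controls had 642 and 715 CPM and MOF cKO 655 and 818 CPM, with overlap.

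**Figure D3:**
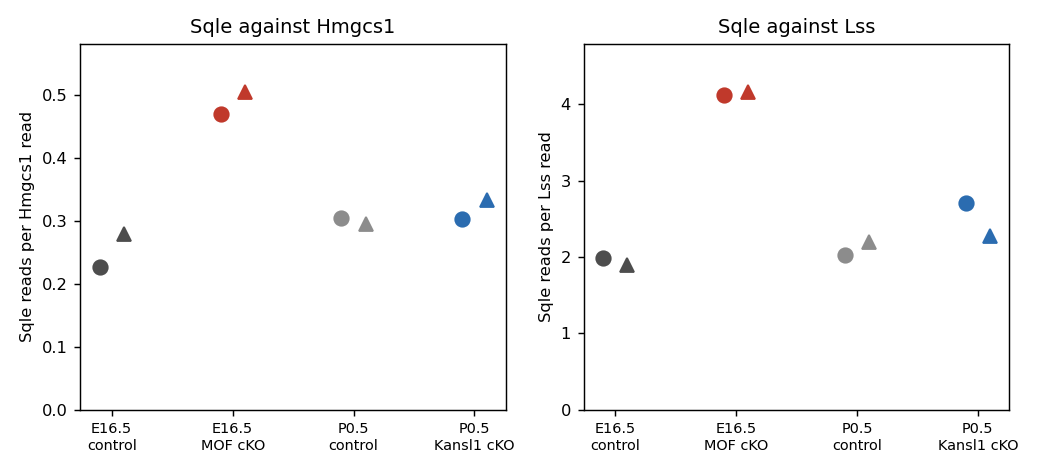
Reads on Sqle for each read on Hmgcs1 (left) and on Lss (right) in every library of the 4 groups, with a circle for replicate 1 and a triangle for replicate 2, on vertical axes that start at 0. Both MOF cKO libraries, at 0.470 and 0.505 and at 4.12 and 4.16, stand above all others.

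In both E16.5 groups, all 8 genes were higher in replicate 2 than in replicate 1, with median ratios of 1.20 in controls and 1.27 in MOF cKO. Among 10444 genes with a mean over 5 CPM, 48.6% and 47.3% were higher in replicate 2, with median ratios of 0.995 and 0.988. At P0.5 the counts were 2 of 8 genes in controls and 5 of 8 in Kansl1 cKO. The spread between E16.5 replicates was therefore shared by the set, and the errors of its members are not independent.

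Markers of other cell states moved in the same libraries. All 7 suprabasal markers found in the counts were higher in MOF cKO and 5 were called. Their summed levels were 3160 to 3883 CPM in controls and 8526 to 9337 CPM in MOF cKO. A further suprabasal marker that had been planned is not among the 7. All 16 macrophage markers were higher and 9 were called, from 22.1 to 45.4 CPM in controls and from 119 to 149 CPM in MOF cKO, and none was at 0. Of 5 hair germ markers 3 were called lower, with sums of 422 to 599 CPM in controls and 235 to 239 CPM in MOF cKO. The 6 basal markers, with sums of 29850 to 30490 CPM in controls and 27480 to 33960 CPM in MOF cKO, and the 10 dermal fibroblast markers, with 1172 to 1791 and 1737 to 2340 CPM, had no call. Of these, 2 basal and 7 fibroblast markers were higher in MOF cKO. In the same comparison all 5 endothelial markers were higher and 1 was called, from 5.90 to 6.61 CPM to 12.3 to 22.4 CPM. All 6 melanocyte markers were higher and none was called, with 17.7 to 47.7 CPM in controls and 22.3 to 79.0 CPM in MOF cKO. Of 4 adipocyte markers, with sums of 1.08 to 1.74 and 1.85 to 6.95 CPM, Plin1 and Cidec were at 0 in all E16.5 libraries. The part of these shifts in the values of Sqle, Fdft1, Cyp51 and Insig1 was not tested. In bulk samples, fewer cells of a type and less RNA per cell cannot be told apart.

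Other genes of sterol and lipid metabolism were counted from a list of 73, of which 72 were tested at E16.5. Outside the 8, edgeR called 4 higher and 5 lower in MOF cKO, smaller shares than the 10% and 9.59% that edgeR called of all genes. DESeq2 called 5 higher and 9 lower of the list, beside 1781 higher and 1735 lower over all genes. The median log2 fold change was -0.03, beside -0.02 over all genes. Of 14 other synthesis enzymes edgeR called none higher and 1 lower, and DESeq2 called 1 higher and 2 lower. The enzyme called by both tools was Acat2, the cytosolic thiolase that feeds Hmgcs1, at 61.5 and 62.5 CPM in controls and 24.0 and 33.1 CPM in MOF cKO (log2 fold change -1.12 ± 0.17, adjusted p = 0.00241). The median of these 14 enzymes was 0.09. Between Cyp51 and Dhcr7, the C4 demethylation enzymes Msmo1 (0.74 ± 0.19, adjusted p = 0.0189) and Nsdhl (-0.79 ± 0.19, adjusted p = 0.0144) lay on opposite sides of 0. Neither was called by edgeR, and DESeq2 called both, with adjusted p-values of 0.00115 for Msmo1 and 0.008 for Nsdhl. They were singled out after their values were seen.

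**Figure D4:**
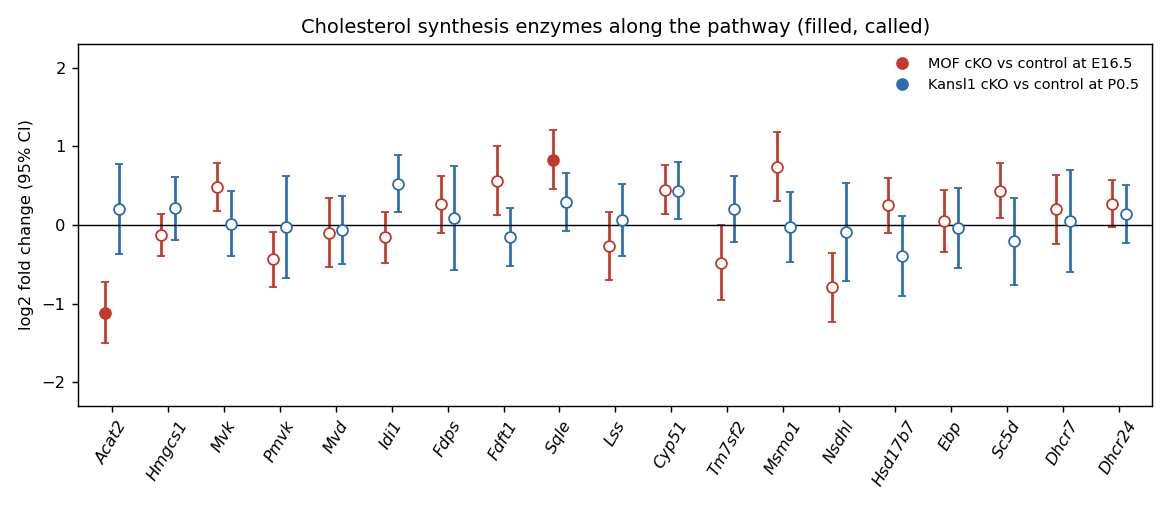
Log2 fold change with 95% confidence intervals (vertical axis) of cholesterol synthesis enzymes ordered from acetyl-CoA (left) to cholesterol (right), in red for MOF cKO at E16.5 and in blue for Kansl1 cKO at P0.5, filled where called. In MOF cKO, Acat2 at -1.12 and Sqle at 0.83 are filled, and Fdft1, Cyp51 and Msmo1 lie above 0 while Lss and Nsdhl lie below it. In Kansl1 cKO no point is filled.

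The genes that control SREBP gave 1 call higher and 2 lower of 12 tested with either tool, beside edgeR shares of 10% and 9.59% over all genes. The transcription factors themselves were not called, with log2 fold changes of 0.34 ± 0.12 for Srebf1 (adjusted p = 0.0658) and 0.10 ± 0.13 for Srebf2 (adjusted p = 0.566). Scap, which escorts SREBPs to the Golgi, was at 0.32 ± 0.11 (adjusted p = 0.0561). Insig2, the paralog of Insig1, was at -0.60 ± 0.19 (adjusted p = 0.0445), so both Insig genes were lower in both MOF cKO libraries and neither was called. Syvn1, an endoplasmic reticulum ubiquitin ligase, rose from 49.1 and 57.4 CPM to 152 and 156 CPM (1.54 ± 0.12, adjusted p = 0.000368). Erlin2, which takes part in degradation at the endoplasmic reticulum, fell from 63.5 and 52.5 CPM to 36.5 and 28.8 CPM (-0.83 ± 0.16, adjusted p = 0.00703). The call of Erlin2 was lost without E16.5 control replicate 1 (adjusted p = 0.0111) or MOF cKO replicate 2 (adjusted p = 0.0188).

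Of 14 genes of sterol uptake and transport and 8 of efflux and storage, edgeR called none in MOF cKO, and DESeq2 called 1, Lipa, the lysosomal acid lipase, lower (-1.30, adjusted p = 0.00382). In the list for cholesterol sulfate and barrier lipids, 2 of 3 were called higher. Sult2b1, which sulfates cholesterol, rose from 7.28 and 7.45 CPM to 36.4 and 33.0 CPM (2.23 ± 0.16, adjusted p = 0.000281). Abca12, a lipid transporter of lamellar granules, rose from 9.17 and 5.94 CPM to 37.4 and 21.1 CPM (1.94 ± 0.32, adjusted p = 0.00359). Both are genes of differentiated keratinocytes, and the suprabasal markers rose in the same libraries, as given above. The part of that shift in the values of Sult2b1 and Abca12 was not tested. Among 12 tested fatty acid synthesis genes, 10 had a log2 fold change below 0, as had 7109 of all 13956 genes. In this list edgeR called 1 higher and 1 lower, and DESeq2 1 higher and 3 lower. Scd1, stearoyl-CoA desaturase, fell from 22.3 and 22.0 CPM to 3.57 and 5.0 CPM (-2.36 ± 0.22, adjusted p = 0.000584), whereas Fasn, fatty acid synthase, rose from 309 and 387 CPM to 531 and 575 CPM (0.67 ± 0.13, adjusted p = 0.00699). The Fasn call was lost without E16.5 control replicate 1 (adjusted p = 0.0227), MOF cKO replicate 1 (0.0117) or MOF cKO replicate 2 (0.0213). Of 9 genes of the isoprenoid branch, Dhdds, a subunit of the enzyme that makes dolichol chains, fell from 40.7 and 39.3 CPM to 18.5 and 14.3 CPM (-1.29 ± 0.16, adjusted p = 0.00135).

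The second comparison asked the same of Kansl1 at P0.5, and none of the 8 genes was called by edgeR or by DESeq2. Of all 13031 genes tested, edgeR called 0%, at a smallest adjusted p of 0.11, where DESeq2 called 35 higher and 55 lower, and 2045 genes (15.7%) had an unadjusted p under 0.05. Idi1 and Cyp51 were the members among these. Idi1 was at 92.4 and 88.8 CPM in controls and 130 and 136 CPM in Kansl1 cKO. Its groups did not overlap, and the log2 fold change was 0.52 ± 0.15 (95% CI 0.16 to 0.88, adjusted p = 0.223). Cyp51 was at 79.7 and 84.7 CPM in controls and 110 and 118 CPM in Kansl1 cKO, without overlap (0.44 ± 0.15, 95% CI 0.08 to 0.80, adjusted p = 0.258).

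Hmgcs1 and Sqle also lay higher in both Kansl1 cKO libraries. Hmgcs1 was at 242 and 219 CPM in controls and 287 and 258 CPM in Kansl1 cKO (0.21 ± 0.17, adjusted p = 0.578). Sqle was at 73.8 and 64.5 CPM in controls and 87.0 and 86.1 CPM in Kansl1 cKO (0.29 ± 0.16, 95% CI -0.08 to 0.66, adjusted p = 0.415). Fdft1 lay lower in both, at 95.7 and 97.2 CPM in controls and 83.0 and 94.4 CPM in Kansl1 cKO (-0.15 ± 0.16, adjusted p = 0.679). The count of 4 genes higher and 1 lower without overlap stands beside 28.8% and 20.6% of all genes.

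Lss, Dhcr7 and Insig1 overlapped between the P0.5 groups. Lss was at 36.5 and 29.4 CPM in controls and 32.1 and 37.9 CPM in Kansl1 cKO (0.06 ± 0.19, 95% CI -0.40 to 0.52, adjusted p = 0.916). Dhcr7 was at 78.1 and 75.9 CPM in controls and at 58.4 and 104 CPM in Kansl1 cKO, the widest spread of a replicate pair among the 8 genes (0.05 ± 0.27, 95% CI -0.60 to 0.69, adjusted p = 0.954). Insig1 was at 28.3 and 20.0 CPM in controls and 20.1 and 17.2 CPM in Kansl1 cKO (-0.39 ± 0.23, 95% CI -0.94 to 0.15, adjusted p = 0.45). The sum over the 8 genes was 726 and 679 CPM in controls and 808 and 852 CPM in Kansl1 cKO. The median log2 fold change of the 8 was 0.14, beside 0.01 over all genes.

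Outside the 8, none of the 69 list genes tested at P0.5 was called, and 8 had an unadjusted p under 0.05. Dhdds, called in MOF cKO, was at -0.85 ± 0.18 in Kansl1 cKO with an adjusted p of 0.185. In the P0.5 libraries all 6 melanocyte markers were higher in Kansl1 cKO, with sums of 503 to 571 CPM in controls and 1138 to 1217 CPM in Kansl1 cKO. Of 10 dermal fibroblast markers 9 were lower, from 1269 to 2021 CPM in controls and from 873 to 1097 CPM in Kansl1 cKO. The 5 hair germ markers were higher, with 235 to 288 CPM in controls and 307 to 424 CPM in Kansl1 cKO, as were 13 of 16 macrophage markers, with 298 to 344 and 439 to 478 CPM. Basal markers, at 16820 to 18620 and 16340 to 17190 CPM, and suprabasal markers, at 47270 to 83080 and 49360 to 81420 CPM, overlapped. Endothelial markers, at 2.64 to 6.73 and 1.21 to 1.65 CPM, and adipocyte markers, at 12.3 to 23.9 and 6.61 to 9.75 CPM, were low. No marker was called, and the part of these shifts in the values of Idi1 and Cyp51 was not tested.

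Whether the knockouts differed in their effect was tested directly in 1 fit over all 8 libraries. None of the 8 genes was called, beside 1.76% of 14565 genes called higher and 1.17% called lower in this test. An unadjusted p under 0.05 was reached by 2 of the 8 and by 4540 of the 14565 genes. Idi1 came nearest, with its effect in MOF cKO lower than that in Kansl1 cKO by a log2 difference of -0.71 ± 0.20 (95% CI -1.17 to -0.26, adjusted p = 0.0472). For Fdft1 the difference was 0.68 ± 0.26 (95% CI 0.09 to 1.28, adjusted p = 0.113) and for Sqle 0.50 ± 0.23 (95% CI -0.02 to 1.03, adjusted p = 0.178). Cyp51 had nearly the same value in both knockouts, with a difference of -0.02 ± 0.20 (95% CI -0.47 to 0.43). The rise of Sqle was thus not shown to differ from its value in Kansl1 cKO. The gene deleted, the stage and the isolation of cells cannot be told apart in this contrast.

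Between the control groups, Dhcr7 and Insig1 were called and moved in opposite directions. Dhcr7 was higher in P0.5 epidermis than in E16.5 sorted cells, from 33.1 and 42.0 CPM to 78.1 and 75.9 CPM (log2 fold change 1.04 ± 0.27, adjusted p = 0.0087). Insig1 was lower, from 45.5 and 51.8 CPM to 28.3 and 20.0 CPM (-1.02 ± 0.22, adjusted p = 0.00331). Over all 14565 genes, 19.6% were called higher and 20.6% lower. Fdft1 had a log2 fold change of 0.68 ± 0.19 (adjusted p = 0.012) and Idi1 of -0.43 ± 0.14 (adjusted p = 0.0286), each without overlap and without a call. Cyp51 did not overlap either, at 72.9 and 79.5 CPM in E16.5 controls and 79.7 and 84.7 CPM in P0.5 controls. The share of all genes without overlap was not taken for this comparison, so the lack of overlap only describes these genes. Hmgcs1, Sqle, Lss and Cyp51 lay between -0.07 and 0.18, with adjusted p-values from 0.381 to 0.831. Both calls depended on single libraries. That of Dhcr7 was lost without any 1 of the 4 control libraries, with adjusted p-values of 0.0594 and 0.0128 for replicates 1 and 2 at E16.5 and 0.0356 and 0.0304 at P0.5. That of Insig1 was lost without E16.5 control replicate 1 (0.0106), E16.5 control replicate 2 (0.0427) or P0.5 control replicate 2 (0.0267). Stage, the way cells were isolated and sequencing cannot be told apart here, and suprabasal markers summed to 3160 to 3883 CPM in E16.5 controls and 47270 to 83080 CPM in P0.5 controls. The part of this in the values of Dhcr7 and Insig1 was not tested.

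Over the 4 groups, the genes differed in the order of their group means, although many neighbours in these orders overlapped. Orders that cross the stages depend on the scaling, and Sqle between controls changed sign under library size alone. Stage, isolation of cells and sequencing cannot be told apart in them. Sqle was highest in MOF cKO (108 CPM on average), then in Kansl1 cKO (86.5) and P0.5 controls (69.2), each separated from the next, and lowest in E16.5 controls (61.1), which overlapped with P0.5 controls. Idi1 was highest in Kansl1 cKO (133 CPM) and lowest in P0.5 controls (90.6 CPM), with the E16.5 groups overlapping between them. Fdft1 was lowest in E16.5 controls (60.3 CPM), and the other groups lay from 88.7 to 96.5 CPM, where MOF cKO overlapped with both P0.5 groups and P0.5 controls were above Kansl1 cKO without overlap. Cyp51 was higher in both knockouts (114 and 104 CPM, overlapping) than in both controls (82.2 and 76.2 CPM). Insig1 was highest in E16.5 controls (48.7 CPM) and lower in MOF cKO (34.9 CPM), and the P0.5 groups followed at 24.1 and 18.6 CPM with overlap. Hmgcs1, between 222 and 273 CPM, was separated from its neighbour at 1 step, between Kansl1 cKO and E16.5 controls. Lss, between 26.1 and 35.0 CPM, overlapped at every step of its order. Dhcr7 was higher in the P0.5 groups (81.39 CPM in Kansl1 cKO and 76.97 in controls, overlapping). The E16.5 groups followed without overlap with them, at 42.96 CPM in MOF cKO and 37.55 in controls, which overlapped with each other.

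The genes most like the set were sought by the Pearson correlation of log2 CPM over the 8 libraries, each experiment centred on its own mean, with the mean of the 8 standardized genes. The 10 closest were Tbkbp1 (r = 0.969), Hdhd2 (0.968), Tyrp1 (0.964), Otud1 (0.941), Camk2b (0.935), Gpr37 (0.934), Rtn4r (0.933), Dct (0.931), Hexim1 (0.93) and Ppp1r10 (0.92). None was on the sterol and lipid list, and Tyrp1 and Dct are among the melanocyte markers given above. The members themselves followed this mean less closely, with r = 0.098 for Insig1 and from 0.528 (Fdft1) to 0.694 (Idi1) for the others. The 10 were picked as the highest of all genes tested in both experiments, and that choice raises their r. Without centring, 1 of the 10, Camk2b, was found again.

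Some counts could include reads of neighbours. By GENCODE M21 on mm10, Fdft1 at chr14:63145150-63179578 shares 774 exon bases, 20.9% of its own, with Ctsb on the opposite strand. Ctsb, a lysosomal protease, was at 0.55 (adjusted p = 0.00486) in MOF cKO and was not called, and whether counting used strand is not given in the sources used here. The overlaps of Lss at chr10:76531588-76557138 with 4930483K19Rik (381 bases, 8.16%) and of Cyp51 at chr5:4081145-4104746 with Akap9 (166 bases, 4.22%) were smaller. Sqle at chr15:59315077-59331192, Hmgcs1 at chr13:119690379-119708260, Idi1 at chr13:8885501-8892451, Dhcr7 at chr7:143823145-143848410 and Insig1 at chr5:28071363-28078662 share no exon base with another listed gene. Idi2, the close copy of Idi1, had 0 reads in all 8 libraries.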

How the data were processed

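The authors sequenced poly(A) RNA in 150-nt paired reads, aligned them to mm10 with HISAT2 2.1.0 and deposited whole-number read counts per gene from HTSeq-count 0.9.1, without normalization. The submitters' processing notes name TopHat2 instead. Reads assigned to no gene (21.1% to 26.0%) were left out.

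Tests used edgeR 4.0.16 in R 4.3.3 (filterByExpr, TMM factors, quasi-likelihood test, Benjamini-Hochberg adjustment), each experiment alone. Calls required an adjusted p no higher than 0.01 and more than 1.5-fold change. The difference between knockouts and the comparison of controls used all 8 libraries. Alternatives were DESeq2 1.42.0, other scalings, filters, thresholds, a replicate block, a joint fit and leaving out each library. The method was tested on simulated data.

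The members and lists were chosen with earlier results of these data known. Named genes were the 8 members, the targeted genes, list genes that were called or define a role, and the 10 genes of most similar pattern. The results of 3 genes under this rule are not reported here. Log2 CPM used a prior count of 2. RefSeq and GENCODE M21 gave sequences and positions. Chromatin and single-cell data of the study were not analysed here.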

Additional observations from a re-analysis of the deposited data

How the results depend on the processing

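With 2 libraries per group, precision is limited by their number, and 1 library decides the calls of Sqle, Erlin2 and Fasn in MOF cKO and of Dhcr7 and Insig1 between controls. Where a library was left out, the lone library of its group was assumed to vary like the other groups. The median of all genes in MOF cKO moved from -0.02 to -0.32 under library size alone. Settings are compared by counts of called genes, higher and lower. The cause of the changes was not tested.

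For the 8 genes in MOF cKO, the 1 call (Sqle) became 0 under upper-quartile scaling (adjusted p = 0.0109), library size alone (0.0361) and a test against the fold threshold (0.123), and stood in DESeq2 (8.78e-06). Leaving out 1 library gave from 0 to 2 calls higher and 0 lower. For the sterol list in MOF cKO, with 4 higher and 5 lower, DESeq2 gave 9 lower, library size alone 17, every gene with at least 1 count 11 and an adjusted p of 0.05 gave 12. The test against the fold threshold gave 2 higher and 2 lower, and leaving out 1 library gave 3 to 5 higher and 4 to 7 lower. In Kansl1 cKO every setting gave 0 calls for the 8 genes, and for the list leaving out 1 library gave from 0 to 1 lower. For the difference between knockouts, an adjusted p of 0.05 gave 1 lower (Idi1). For P0.5 against E16.5 controls, with 1 higher and 1 lower, 2 were higher in DESeq2, median-of-ratios scaling, every gene with at least 1 count and an adjusted p of 0.05. Library size alone gave 0 higher and 2 lower, the test against the fold threshold gave 0 and 0, and leaving out 1 library gave 0 to 2 higher and 0 to 1 lower.

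Log2 fold changes that changed sign were small in the main fit, but not always where 1 library was left out. Under library size alone these were Dhcr7 (-0.11) and Srebf2 (-0.20) in MOF cKO, Dhcr7 in Kansl1 cKO (-0.028), Dhcr7 in the difference (-0.079), and Sqle (-0.17), Lss (-0.29) and Cyp51 (-0.23) between controls. Under upper-quartile scaling, Dhcr7 in Kansl1 cKO was at -0.014. The difference for Cyp51 was 0.077 in DESeq2, 0.081 with median-of-ratios scaling, 0.0078 with upper-quartile scaling and 0.11 with every gene with at least 1 count, where that for Insig1 was 0.0048. Hmgcs1 between controls was at 0.061, 0.065 and 0.028 in DESeq2, median-of-ratios scaling and every gene with at least 1 count. Without 1 library, the ranges that cross 0 were -0.35 to 0.008 for Idi1, -0.053 to 0.40 for Dhcr7 and -0.048 to 0.24 for Srebf2 in MOF cKO. In Kansl1 cKO they were -0.13 to 0.23 for Lss and -0.43 to 0.38 for Dhcr7. In the difference they were -0.25 to 0.58 for Dhcr7, -0.089 to 0.19 for Cyp51 and -0.39 to 0.12 for Insig1. Between controls they were -0.12 to 0.38 for Lss and -0.14 to 0.051 for Hmgcs1.

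The paper describes pairs of samples in both experiments, but the labels do not say that equal numbers mark a pair. The main tests were therefore unpaired. Deviations of same-numbered libraries correlated across genes at 0.288 at E16.5 and -0.302 at P0.5. With the replicate block, calls over all genes in MOF cKO went from 1395 higher and 1338 lower to 1903 and 2263, the sterol list had 12 lower and the 8 genes kept the call of Sqle, while Dhcr7 in Kansl1 cKO was at -0.0092 and 2 genes were higher between controls. In the difference between knockouts, calls over all genes went from 256 higher and 170 lower to 1 and 0, and to 942 and 492 in DESeq2. A crossed replicate block at P0.5, chosen after seeing the data, gave 0 calls for the 8 genes and the list and 1 lower over all genes.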
